A study of Mus musculus with 3 samples.

Results

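The genes described here are 8 aminotransferase genes (Got1, Got2, Gpt, Gpt2, Tat, Agxt, Agxt2 and Aadat) and 2 serine dehydratase genes (Sds and Sdsl), 10 of the 23850 gene rows in each liver table. They were taken by gene symbol, each matched 1 row, and all 10 had a valid estimate in every library. Liver RNA was depleted of ribosomal RNA and sequenced from mice aged 16 weeks on a mixed C57BL6J and FVB background, with 1 library for each of 3 groups. The wt AL library came from wildtype mice fed ad libitum, the Ercc1 AL library from Ercc1 delta/- mutants fed ad libitum, and the Ercc1 DR library from Ercc1 delta/- mutants under diet restriction. Ercc1 is a gene of DNA excision repair, and the mutants carry a null and a truncated delta allele. The labels give neither the sex of the mice, the degree or start of restriction, the hour of sampling, nor the number of animals behind a library. With 1 library per group no difference has a replicate check, and no test, p-value or SD is given. The comparisons are of genotype under free feeding (Ercc1 AL against wt AL), of diet in the mutant (Ercc1 DR against Ercc1 AL), and of both together (Ercc1 DR against wt AL). The first pair of comparisons share the Ercc1 AL library, and the last shares a library with each of the others.

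Aminotransferases use pyridoxal phosphate, derived from vitamin B6, to move an amino group between an amino acid and a keto acid. In liver they pass the nitrogen of dietary and body protein to glutamate and aspartate, from which the urea cycle draws, and leave carbon skeletons that can be burned or turned into glucose. Serine dehydratase releases ammonia from serine directly and leaves pyruvate. Several of these enzymes are known to increase in liver with fasting, glucagon or glucocorticoids, and the aspartate and alanine aminotransferases are the enzymes measured in serum as AST and ALT.

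Under restriction Got1, Sds, Agxt, Tat and Gpt2 were at least 2-fold higher than in the freely fed mutant, led by Got1 at 470.3 against 41.0 FPKM. FPKM is the number of fragments scaled to transcript length and library size, so levels can be set beside each other between genes. In 9 of the 10 genes the FPKM was lowest in wt AL, intermediate in Ercc1 AL and highest in Ercc1 DR, and the exception was Sdsl, which was highest in Ercc1 AL. Of all 12747 genes with at least 1 FPKM in some library, 52.6% had this order as deposited. After the rescaling described below 14.8% of them had it, and the same 9 of the 10 genes, though for Tat and Agxt2 with 1 step near 0. Rescaling draws low genes down, and most of the 10 genes are well expressed. No share was taken among genes of like level, so these shares are not a matched background. The summed FPKM of the 10 genes was 179.7 in wt AL, 331 in Ercc1 AL and 1234 in Ercc1 DR. Tat held 41.4% of that sum in wt AL and 24.6% in Ercc1 DR, while Got1 went from 8.98% to 38.1%. Since these are bulk samples, more or fewer cells of a type and more or less RNA per cell cannot be told apart.

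The general level of the libraries differed, and every ratio has to be read against that. Over 9053 genes that reached 1 FPKM in every library, the median log2 FPKM ratio was 0.49 in Ercc1 AL against wt AL, 0.34 in Ercc1 DR against Ercc1 AL and 0.78 in Ercc1 DR against wt AL. Log2 ratios below are of FPKM + 1 with this median subtracted, and are called rescaled. As the median is of FPKM without the added 1, rescaled ratios of low genes are drawn down, some below 0. Medians over all genes are lowered by this too. A gene was counted as higher or lower past a 2-fold rescaled ratio, among genes with at least 1 FPKM in either library. Of all genes measured so, 2.07% were higher and 6.47% lower in Ercc1 AL against wt AL, 2.78% and 14.4% in Ercc1 DR against Ercc1 AL, and 4.60% and 22.8% in Ercc1 DR against wt AL. Without rescaling, these shares were 5.70% and 2.20%, 6.47% and 8.65%, and 24.1% and 8.56%. Fragments implied by the deposited intervals numbered 19.0 M to 25.1 M per library, a rough figure that rests on reading each bound as 2 SD of counting. The deposited FPKM of these genes lay above the upper bound of its own interval in 26 of 30 cases, and below the lower bound in 0. Of all gene rows with an estimate, expressed or not, 9.70% lay outside their interval in wt AL, 12.9% in Ercc1 AL and 13.0% in Ercc1 DR. The reason for the difference is not known.

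Ercc1 itself was at 0.461 FPKM in wt AL, 0.573 FPKM in Ercc1 AL and 0.475 FPKM in Ercc1 DR with overlapping intervals, and as the labels do not say which part of the transcript each allele lacks, and Cd3eap overlaps it on the opposite strand, this level does not check them. Albumin had no valid estimate in any library, and the 6 hepatocyte markers measured summed to 2172, 2565 and 5318 FPKM. They did not move together: in Ercc1 DR against wt AL 1 was at least 2-fold higher when rescaled (Cps1) and 1 lower (Serpina1a, at 281, 281 and 192 FPKM), while Ttr was at 978, 781 and 2062 FPKM. Of 5 endothelial markers 0 were higher and 1 was lower in Ercc1 DR against Ercc1 AL, and 3 were lower in Ercc1 DR against wt AL (median log2 ratio -1.30). Their summed FPKM was 15.8 in wt AL, 14.1 in Ercc1 AL and 9.67 in Ercc1 DR. The macrophage sum was 10.999, 12.5 and 7.55 FPKM, with 0 of 4 measured markers past 2-fold in Ercc1 DR against Ercc1 AL and 3 of 3 lower in Ercc1 DR against wt AL (median -1.16). The sum of neutrophil and lymphocyte markers was 8.55, 6.70 and 3.30 FPKM, in the same order, and most of its fall was Mpo (6.41, 3.50 and 1.24 FPKM). Rescaled, Mpo was past 2-fold lower in all 3 comparisons, but not as deposited in Ercc1 AL against wt AL (-0.72). S100a8, S100a9, Cd3e and Cd79a did not follow it, being low and each highest in Ercc1 AL. Of all genes, 14.4% were lower in Ercc1 DR against Ercc1 AL and 22.8% in Ercc1 DR against wt AL, with a median of -0.29 in the latter. Without rescaling, 0 endothelial and 0 macrophage markers were at least 2-fold lower in either of these comparisons. Stellate cell markers went the other way, summing to 18.5 FPKM in wt AL, 31.4 in Ercc1 AL and 36.5 in Ercc1 DR. Most of that was Dcn (13.5, 24.5 and 30.8 FPKM), and 0 of 3 measured were past 2-fold in any comparison when rescaled. Cholangiocyte markers summed to 6.52, 4.44 and 4.78 FPKM, of which Krt7 fell (2.37, 0.81 and 0.24 FPKM) while the low Krt19, Epcam and Sox9 rose. The part of cell composition in the results below was not tested. Kidney and muscle also express several of these enzymes, and the 5 kidney tubule markers summed to 1.71, 2.58 and 1.73 FPKM and the 5 skeletal muscle markers to 14.7, 19.5 and 14.1 FPKM. Pancreas acinar markers summed to 6.30, 7.02 and 2.71 FPKM. Adipocyte markers summed to 1.67, 2.54 and 8.68 FPKM, most of it Cidec, a lipid droplet gene that hepatocytes can express too, at 1.01, 1.56 and 8.18 FPKM. No listed marker with an estimate was at 0.

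**Figure D1:**
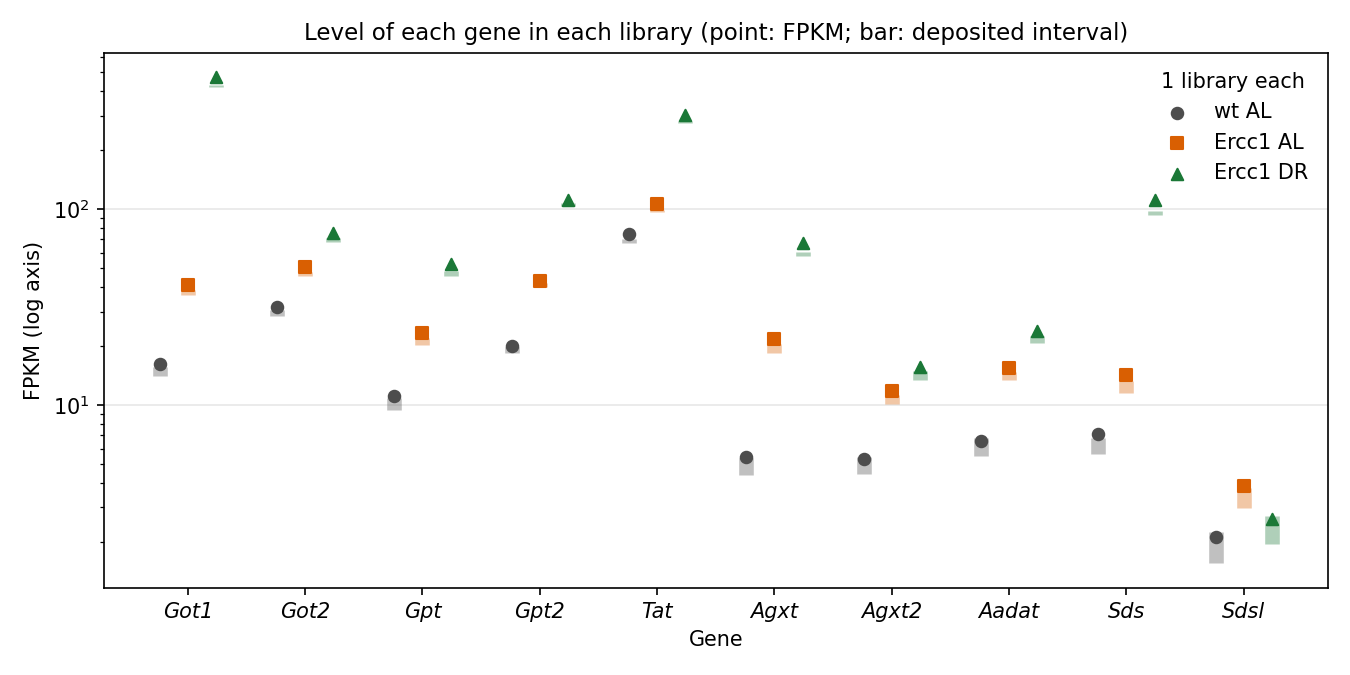
FPKM of the 10 genes on a log axis in the wt AL, Ercc1 AL and Ercc1 DR libraries, 1 library each; points are the deposited FPKM and bars the deposited interval. Got1 and Sds stand furthest apart between Ercc1 DR and the other libraries, and only Sdsl has its highest point in Ercc1 AL.

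Got1 and Got2 encode the cytosolic and mitochondrial aspartate aminotransferases, which together with malate dehydrogenases form the malate-aspartate shuttle and supply aspartate to the urea cycle. Got1 (chromosome 19, 43499753 to 43524605, minus strand, mm10) was at 16.1 FPKM in wt AL (deposited interval 14.1 to 15.6), 41.0 FPKM in Ercc1 AL (36.3 to 38.4) and 470.3 FPKM in Ercc1 DR (422 to 429). The Ercc1 DR value was 11.5 times that of Ercc1 AL and 29.2 times that of wt AL as deposited. Its rescaled log2 ratio was 3.15 in Ercc1 DR against Ercc1 AL, the 21st highest of 12295 genes measured, 4.0 in Ercc1 DR against wt AL and 0.80 in Ercc1 AL against wt AL. The last value was short of 2-fold when rescaled and past it as deposited, at 1.29.

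Got2 (chromosome 8, 95864137 to 95888365, minus strand) was at 31.7 FPKM in wt AL (28.4 to 30.6), 50.5 FPKM in Ercc1 AL (45.5 to 47.8) and 75.1 FPKM in Ercc1 DR (67.7 to 70.8). The intervals did not overlap, yet the rescaled log2 ratios were small, 0.16 in Ercc1 AL against wt AL and 0.23 in Ercc1 DR against Ercc1 AL. The cytosolic to mitochondrial ratio Got1/Got2 was therefore 0.508 in wt AL, 0.812 in Ercc1 AL and 6.27 in Ercc1 DR, with Got1 below Got2 in both freely fed libraries and above it under restriction. This ratio is taken within a library and does not depend on the scaling between libraries. Got2 is the less certain value, since 47.2% of the 50-base stretches of its longest transcript also occur, on either strand, in other GENCODE transcripts. These are of Got2-ps1, Gm10874 or Gm45760, of which Gm45760 overlaps exons of Got2 itself on the opposite strand. How shared reads were assigned is not given in the sources used here. Got1 shared 0 such stretches with another gene.

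The promoters of Got1 and Got2 are shown because the pair differ most among the aminotransferases that share a reaction, and those of Tat, Agxt and Gpt2 because these genes too were at least 2-fold higher under restriction. The sequences are the 250 bases upstream of the RefSeq start on build GRCm38.p6, which shares its chromosome coordinates with mm10. Windows were matched for 7 of the 10 genes, not for Gpt, Sds and Sdsl. Got1 lies at chr19:43524606-43524855 (minus strand), Got2 at chr8:95888402-95888651 (minus strand), Tat at chr8:109990186-109990435, Agxt at chr1:93134990-93135239 and Gpt2 at chr8:85492326-85492575 (plus strand). Adjacent matches run together in capitals. Each is read 5′ to 3′ toward the gene, and capitals mark matches on either strand. The motif searched for NF-Y was CCAAT, the CCAAT box. For the TATA box it was TATAAA. The half-site of CREB was given as TGACG. For ATF4 the C/EBP-ATF element was TGATGNAA. The glucocorticoid response element was searched whole and as its half-site AGAACA. The SP1 motif was GGGCGG, and the HNF1 site was searched as well. The E-box was CACGTG.
Got1: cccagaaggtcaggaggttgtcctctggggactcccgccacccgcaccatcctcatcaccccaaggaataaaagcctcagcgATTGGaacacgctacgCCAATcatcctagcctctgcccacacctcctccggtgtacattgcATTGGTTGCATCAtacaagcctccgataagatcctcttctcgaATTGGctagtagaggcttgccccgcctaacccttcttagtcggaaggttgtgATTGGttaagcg
Got2: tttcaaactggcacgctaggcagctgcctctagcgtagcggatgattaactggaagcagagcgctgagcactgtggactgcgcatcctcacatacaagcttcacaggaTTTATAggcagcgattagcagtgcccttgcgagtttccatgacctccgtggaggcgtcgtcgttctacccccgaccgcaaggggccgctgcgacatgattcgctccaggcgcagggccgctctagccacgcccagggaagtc
Tat: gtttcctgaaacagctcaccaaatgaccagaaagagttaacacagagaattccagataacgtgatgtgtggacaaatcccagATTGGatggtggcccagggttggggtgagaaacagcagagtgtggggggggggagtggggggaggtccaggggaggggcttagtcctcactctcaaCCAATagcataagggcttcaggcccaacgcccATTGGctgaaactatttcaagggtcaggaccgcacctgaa
Agxt: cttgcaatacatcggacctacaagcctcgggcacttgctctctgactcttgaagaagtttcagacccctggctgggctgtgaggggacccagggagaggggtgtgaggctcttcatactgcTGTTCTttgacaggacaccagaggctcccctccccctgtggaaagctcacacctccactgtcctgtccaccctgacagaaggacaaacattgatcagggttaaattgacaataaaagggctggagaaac
Gpt2: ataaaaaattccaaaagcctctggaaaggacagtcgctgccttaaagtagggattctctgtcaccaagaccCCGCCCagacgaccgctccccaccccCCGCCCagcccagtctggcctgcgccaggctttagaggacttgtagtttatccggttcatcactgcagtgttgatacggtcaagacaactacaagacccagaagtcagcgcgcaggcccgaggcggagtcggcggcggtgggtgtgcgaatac

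The Got1 window held 5 CCAAT matches, beginning 168, 152, 107, 64 and 12 bases before the start, and 1 TGATGNAA match 102 bases before it, which directly follows the third CCAAT match without overlap. Of 32851 promoter windows of the same length, 33.8% held CCAAT at least once, 0.213% held it 5 or more times, and 3.45% held TGATGNAA. The Tat window held 3 CCAAT matches, and 2.79% of windows held 3 or more. Got2 held 1 TATAAA match (12.4% of windows), Agxt 1 glucocorticoid half-site (16.1%) and Gpt2 2 GGGCGG matches (16.7% held 2 or more). The half-site is part of the full glucocorticoid element, of which none of these windows held a match, a finding about these letters in these windows alone. A match describes letters and is not evidence of binding.

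Gpt and Gpt2 encode the cytosolic and mitochondrial alanine aminotransferases, which turn alanine from muscle and diet into pyruvate. Gpt (chromosome 15, 76696764 to 76699675, plus strand) was at 11.1 FPKM in wt AL (9.44 to 10.8), 23.4 FPKM in Ercc1 AL (20.2 to 21.98) and 52.4 FPKM in Ercc1 DR (45.5 to 48.2). Gpt2 (chromosome 8, 85492617 to 85527558, plus strand) was at 19.9 FPKM (18.4 to 19.8), 43.0 FPKM (40.05 to 41.9) and 111 FPKM (104 to 107) in the same order. Both genes were lowest in wt AL and highest in Ercc1 DR, with no overlap of intervals. In Ercc1 DR against Ercc1 AL the rescaled log2 ratio was 0.79 for Gpt and 1.02 for Gpt2, so that Gpt2 stood just past 2-fold and Gpt just short of it. Gpt2 was under 2-fold in 4 of 9 alternative settings (0.81 at the lowest), and Gpt was past it without rescaling (1.13). In Ercc1 DR against wt AL both were past 2-fold, at 1.35 and 1.64. The balance of the alanine pair differed far less than that of the aspartate pair, with Gpt2/Gpt at 1.79 in wt AL, 1.83 in Ercc1 AL and 2.12 in Ercc1 DR. The deposited intervals allow 1.70 to 2.10, 1.82 to 2.07 and 2.16 to 2.36 in the same order. By these ranges Ercc1 DR was above both other libraries, and its ratio of 2.12 lies below its own range.

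**Figure D2:**
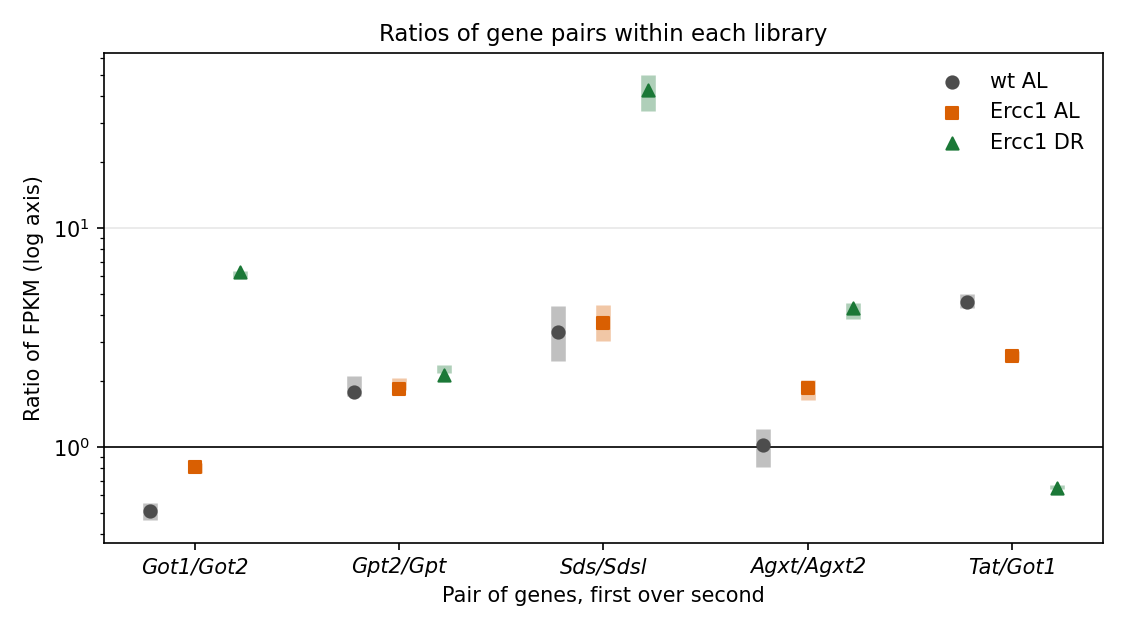
Ratio of the FPKM of gene pairs within each library, on a log axis; points are ratios of deposited FPKM and bars the lowest and highest ratio that the deposited intervals allow. Got1/Got2 and Tat/Got1 cross 1 between Ercc1 AL and Ercc1 DR, Sds/Sdsl reaches 42.8 in Ercc1 DR, and the points of Gpt2/Gpt stay between 1.79 and 2.12. In Ercc1 DR the Gpt2/Gpt point lies below its bar.

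Tat encodes tyrosine aminotransferase, the first and rate-limiting step of tyrosine breakdown in liver and a classical glucocorticoid-induced gene. Tat (chromosome 8, 109990436 to 109999804, plus strand) was at 74.3 FPKM in wt AL (67.1 to 70.2), 106 FPKM in Ercc1 AL (96.1 to 99.4) and 304 FPKM in Ercc1 DR (276 to 282). It was the highest of the 10 genes in both freely fed libraries and second to Got1 under restriction. Its rescaled log2 ratio was 0.02 in Ercc1 AL against wt AL, near the general shift between those libraries, and 1.17 in Ercc1 DR against Ercc1 AL. The latter was 0.97, under 2-fold, when scaled to the more abundant genes. Tat/Got1 was 4.61 in wt AL, 2.59 in Ercc1 AL and 0.645 in Ercc1 DR.

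Agxt encodes the alanine-glyoxylate aminotransferase that detoxifies glyoxylate, whose loss causes primary hyperoxaluria. Agxt (chromosome 1, 93135276 to 93145421, plus strand) was at 5.41 FPKM in wt AL (4.38 to 5.38), 21.8 FPKM in Ercc1 AL (18.4 to 20.4) and 67.4 FPKM in Ercc1 DR (57.4 to 60.7). It was the only one of the 10 genes past 2-fold in Ercc1 AL against wt AL when rescaled, with a log2 ratio of 1.34, which was 0.87 with a pseudocount of 5. It was also past 2-fold in Ercc1 DR against Ercc1 AL, at 1.25, so that Ercc1 DR stood at 12.5 times wt AL as deposited.

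Agxt2 encodes a mitochondrial enzyme that also uses glyoxylate but acts on beta-aminoisobutyrate and methylated arginines. Agxt2 (chromosome 15, 10358579 to 10409738, plus strand) was at 5.31 FPKM in wt AL (4.45 to 5.41), 11.8 FPKM in Ercc1 AL (10.1 to 11.3) and 15.6 FPKM in Ercc1 DR (13.4 to 14.9). Agxt and Agxt2 were level in wt AL, where their intervals overlapped and Agxt/Agxt2 was 1.02, and apart in Ercc1 AL (1.86) and Ercc1 DR (4.33). The rescaled log2 ratio of Agxt2 was 0.52 in Ercc1 AL against wt AL and 0.04 in Ercc1 DR against Ercc1 AL, and the sign of the latter turned with the scaling, to -0.16 at the lowest. GENCODE places the gene model Gm21973 over exons of Agxt2 on the same strand, and 4.93% of 50-base stretches are shared with it.

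Aadat encodes the mitochondrial aminoadipate aminotransferase of lysine breakdown, which also converts kynurenine to kynurenic acid. Aadat (chromosome 8, 60506124 to 60545677, plus strand) was at 6.56 FPKM in wt AL (5.50 to 6.76), 15.5 FPKM in Ercc1 AL (13.3 to 14.8) and 23.9 FPKM in Ercc1 DR (20.7 to 22.5). Its rescaled log2 ratio was 0.64 in Ercc1 AL against wt AL and 0.26 in Ercc1 DR against Ercc1 AL, within 2-fold both times. In Ercc1 DR against wt AL it was 0.94, just short of 2-fold.

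Sds encodes serine dehydratase, a cytosolic enzyme that turns serine into pyruvate and ammonia, and Sdsl a protein of similar sequence. Sds (chromosome 5, 120476547 to 120483905, plus strand) was at 7.08 FPKM in wt AL (5.59 to 6.82), 14.3 FPKM in Ercc1 AL (11.6 to 13.2) and 112 FPKM in Ercc1 DR (92.9 to 97.8). Ercc1 DR stood at 7.83 times Ercc1 AL as deposited, a rescaled log2 ratio of 2.55 and the 32nd highest of 12295 genes. Ercc1 AL was above wt AL by a rescaled log2 ratio of 0.43, within 2-fold. Sds overlaps exons of Plbd2 and Gm15690 on the opposite strand, and 28.9% of its 50-base stretches are shared with them. Strand use in counting is not given in the sources used here, so their reads cannot be told apart, and Plbd2 itself was at 3.27, 5.23 and 8.81 FPKM in the wt AL, the Ercc1 AL and the Ercc1 DR library.

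Sdsl (chromosome 5, 120458202 to 120472763, minus strand) was at 2.12 FPKM in wt AL (1.56 to 2.26), 3.87 FPKM in Ercc1 AL (2.97 to 3.79) and 2.61 FPKM in Ercc1 DR (1.96 to 2.71). It was the lowest of the 10 genes in every library. Its intervals in wt AL and Ercc1 DR overlapped, and Ercc1 AL lay above both. The 2 genes lie head to head, with 3784 bases between their annotated starts, and went opposite ways under restriction, where the rescaled log2 ratio of Sdsl was -0.77, within 2-fold. Sds/Sdsl was 3.34 in wt AL, 3.68 in Ercc1 AL and 42.8 in Ercc1 DR (34.3 to 49.8 from the deposited intervals).

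Counted together, 1 of the 10 genes was at least 2-fold higher in Ercc1 AL against wt AL when rescaled, beside 2.07% of all genes measured, and 0 were lower. On log2(FPKM + 1) without rescaling 6 were higher, beside 5.70%, and Sds, at 2.02 times by FPKM alone, fell just short on that scale. The rescaled median of the 10 genes was 0.52, against -0.15 over the 12294 genes measured, of which the 75th percentile was 0.08. All 10 ratios were above 0, with Tat near it at 0.02, and 8 were with a pseudocount of 5. In Ercc1 DR against Ercc1 AL 5 were higher (Got1, Sds, Agxt, Tat and Gpt2), beside 2.78% of all genes, and 0 lower. The median was 0.90, against -0.16 over all genes, with a spread from -0.77 for Sdsl to 3.15 for Got1. In Ercc1 DR against wt AL 6 were higher, Gpt joining these 5, beside 4.60% of all genes, and 0 were lower. The median was 1.29, against -0.29. On log2(FPKM + 1) without rescaling, the higher counts in Ercc1 DR against Ercc1 AL and against wt AL were 6 (beside 6.47%) and 9 (beside 24.1%).

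Most of these genes are well expressed, and the background among genes with at least 5 FPKM in either library is higher. There 5.47%, 6.25% and 10.5% of genes were at least 2-fold higher when rescaled, in the same order of comparisons, and 9.43%, 20.3% and 21.2% lower. The medians over these genes were -0.004, 0.12 and 0.14, higher than those over all genes measured. Of the 10 genes, 9 reached that minimum, with medians of 0.52, 1.02 and 1.35.

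**Figure D3:**
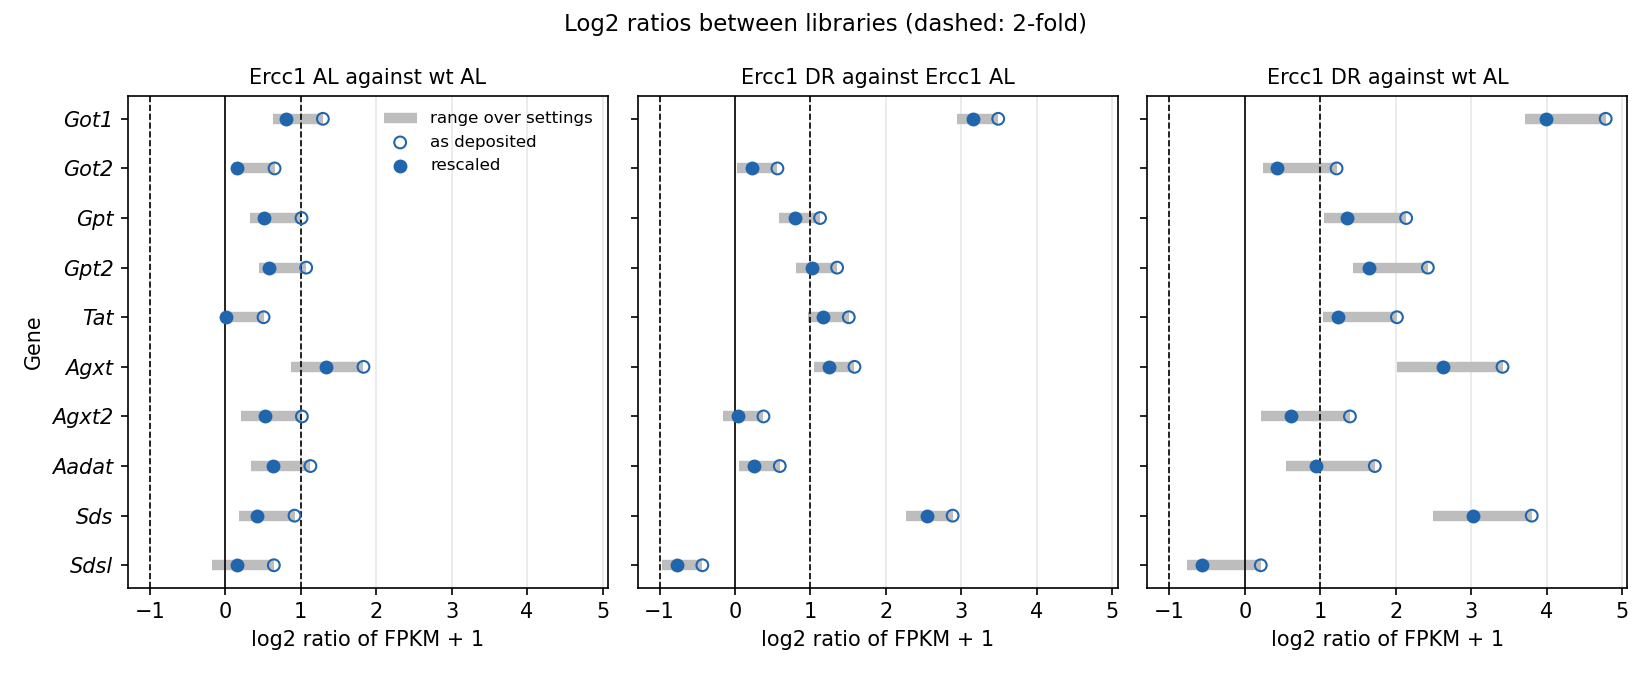
Log2 ratios of FPKM + 1 of the 10 genes in the 3 comparisons; filled points are rescaled, open points as deposited, grey bars the range over the main value and its alternative settings, and dashed lines 2-fold. Got1 and Sds lie past 2-fold under restriction in every setting, while Gpt2 and Tat sit near the line.

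The order of levels also differed between libraries. In wt AL it ran from Tat over Got2, Gpt2, Got1, Gpt, Sds, Aadat, Agxt and Agxt2 to Sdsl, and the intervals of the neighbours Sds and Aadat and of Agxt and Agxt2 overlapped. In Ercc1 AL Agxt stood sixth, with an interval overlapping that of Gpt, ahead of Aadat, Sds and Agxt2. In Ercc1 DR the order was Got1, Tat, Sds, Gpt2, Got2, Agxt, Gpt, Aadat, Agxt2 and Sdsl. Sds and Gpt2 were level there, at 112 and 111 FPKM, and their intervals give the opposite order.

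Other genes of amino acid handling were described from lists chosen with earlier results of these data known. The list counts under restriction stand beside 2.78% of all genes higher and 14.4% lower in Ercc1 DR against Ercc1 AL. The median over all genes was -0.16, so a list median near 0 lies above it. Among genes with at least 5 FPKM in either library, 6.25% were higher and 20.3% lower, with a median of 0.12, and a list median near 0 lies below that. With this minimum the median of the regulators of amino acid breakdown was 0.02. That of the glyoxylate and pyruvate genes was -0.12. Of 7 other aminotransferases with at least 1 FPKM, 2 were at least 2-fold higher in Ercc1 DR against Ercc1 AL and 0 lower, with a median of 0.58. Agxt2l1, now known as a phospholyase of phosphoethanolamine that belongs to the family by sequence, went from 4.75 to 91.4 FPKM (log2 ratio 3.67). Ccbl2, a kynurenine aminotransferase, went from 15.5 to 73.0 FPKM (1.83). Oat, the ornithine aminotransferase, was just short of 2-fold, at 65.5 and 162 FPKM (0.96), and Ccbl1 was at 5.35 and 3.90 FPKM (-0.71).

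In the malate-aspartate shuttle 2 of 5 partner genes were higher and 0 lower, namely the malate dehydrogenases Mdh2 (24.8 to 89.5 FPKM, log2 ratio 1.48) and Mdh1 (39.7 to 111 FPKM, 1.13), of which Mdh1 was under 2-fold when scaled to the more abundant genes. The aspartate-glutamate carrier Slc25a12 had a log2 ratio of 0.61 and the oxoglutarate carrier Slc25a11 of 0.52. In Ercc1 AL against wt AL 0 of the 5 were past 2-fold, with a median of -0.02.

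Glutamate and ammonia handling had 5 of 9 genes higher and 0 lower under restriction, with a median of 1.14. Slc25a22, a glutamate carrier of mitochondria, went from 5.93 to 65.0 FPKM (log2 ratio 2.92), Cps1, which makes carbamoyl phosphate for the urea cycle, from 299 to 1146 FPKM (1.60), arginase Arg1 from 169 to 626 FPKM (1.55) and glutamate dehydrogenase Glud1 from 66.0 to 219.7 FPKM (1.38). Glul, glutamine synthetase of pericentral hepatocytes, was at 45.2 and 40.4 FPKM (-0.49).

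Serine, glycine and threonine genes had 2 of 11 members higher and 0 lower, with a median of 0.43. These were Gldc, of the glycine cleavage system, at 13.4 and 37.1 FPKM (1.07) and Dld at 14.1 and 37.8 FPKM (1.03). Both lay so near 2-fold that 0 of the 11 were past it with either other scaling or a pseudocount of 5. Glyoxylate and pyruvate genes had 0 of 9 past 2-fold in either direction, with a median of -0.01. There Hao1, the glycolate oxidase that makes the glyoxylate used by Agxt, was at 52.0 and 39.6 FPKM (-0.72), and the pyruvate carrier subunit Mpc1 at 29.9 and 73.98 FPKM (0.94). Amino acid transporters had 2 of 9 higher and 0 lower, with a median of 0.44. They were Slc7a2, a carrier of arginine and lysine, at 16.2 and 76.2 FPKM (1.83), and Slc16a10, a carrier of aromatic amino acids, at 5.96 and 23.4 FPKM (1.47).

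Known regulators of amino acid breakdown had 0 of 11 members past 2-fold in either direction under restriction, and a median of 0.03. The largest ratio was that of the coactivator Ppargc1a, named after its values were seen, at 0.81 and 3.20 FPKM (0.88). It is a low gene, and 1 regulator was past 2-fold without rescaling and with a pseudocount of 0.1. Foxo1 was at 2.62 and 6.21 FPKM (log2 ratio 0.66), Cebpb at 17.1 and 14.6 FPKM (-0.55) and Hnf4a at 38.6 and 66.2 FPKM (0.43). Glucocorticoid-responsive genes had 3 of 9 higher and 0 lower, with a median of 0.41. These were the metallothioneins Mt2 (172 to 991 FPKM, 2.18) and Mt1 (87.9 to 347 FPKM, 1.63), which also respond to metals, and the receptor chaperone Fkbp5 (8.64 to 28.2 FPKM, 1.26). The glucocorticoid target Tsc22d3 was within 2-fold, at 14.7 and 22.2 FPKM (0.23). Below 0 were Per1, at 1.63 and 1.99 FPKM (-0.15), and Sgk1, at 4.02 and 4.04 FPKM (-0.33), both low and named after their values were seen. In Ercc1 DR against wt AL the list had 3 of 9 higher, beside 4.60% of all genes, and 0 lower. Its median there was -0.04, with 5 ratios below 0.

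Sds is a gene of periportal hepatocytes, and genes of that zone had 3 of 8 members higher and 0 lower under restriction, with a median of 0.55. They were histidase Hal (10.1 to 50.5 FPKM, log2 ratio 1.87), Arg1 and, just past 2-fold, Hsd17b13 (28.5 to 73.8 FPKM, 1.0). Of the 8 periportal ratios 7 were above 0, and Pck1, named after its values were seen, was at 194 and 234 FPKM (-0.07). Pericentral genes had 0 of 8 past 2-fold, with a median of -0.11 and 3 ratios above 0. Of these, Oat was at 0.96 and Cyp2e1 at 0.73 (1164 to 2431 FPKM), and Glul was at -0.49. In Ercc1 DR against wt AL both lists had 2 of 8 higher, beside 4.60% of all genes, and 0 lower. The 2 lists were not tested against each other, and Arg1, Gls2, Ass1, Glul, Oat and Slc1a2 are in other lists as well.

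**Figure D4:**
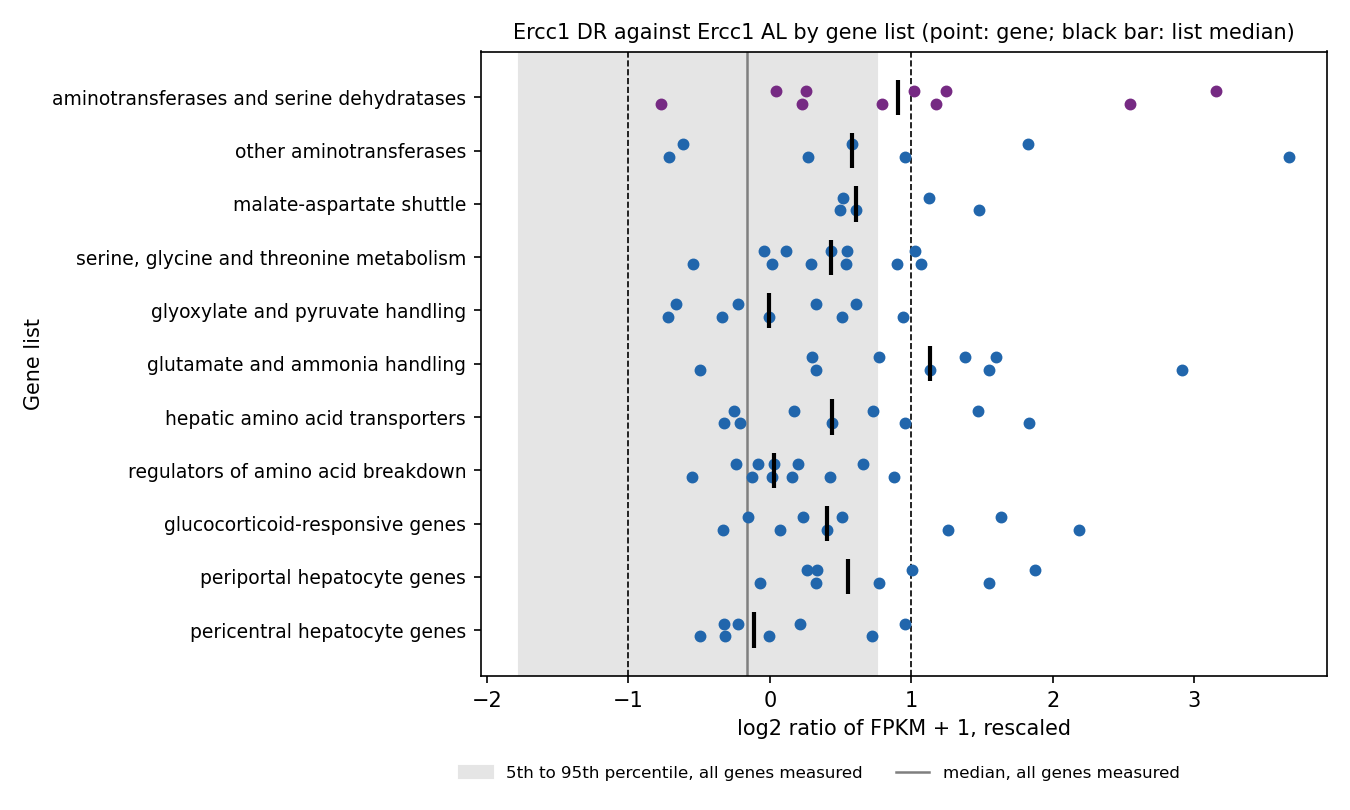
Rescaled log2 ratio of FPKM + 1 in Ercc1 DR against Ercc1 AL by gene list; points are genes with at least 1 FPKM in either library, black bars list medians, the grey band the 5th to 95th percentile of all genes measured and dashed lines 2-fold. List medians run from -0.11 for pericentral genes to 1.14 for glutamate and ammonia handling.

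The genes closest in pattern to the 2 extremes were taken by Euclidean distance over the pair of rescaled log2 ratios (Ercc1 AL against wt AL and Ercc1 DR against Ercc1 AL), among 4433 named genes that reached 5 FPKM in some library. With 3 libraries this is a description of 2 numbers per gene. Closest to Got1 were Slc25a22 (distance 0.49), Fam134b (0.55), Sds (0.71), Slco1a4 (0.73) and Cth (0.76). Fam134b was at 2.20, 10.4 and 115 FPKM in the wt AL, the Ercc1 AL and the Ercc1 DR library, and Cth at 12.7, 33.2 and 225 FPKM. Closest to Sdsl were Soat2 (0.02), Lyz2 (0.05), Prkaa1 (0.06), Rbm27 (0.07) and Lrg1 (0.08), at much smaller distances, since far more genes lie near its ratios.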

How the data were processed

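The deposited values are FPKM with a lower and an upper bound and a status code, 1 table per library, per the file headers. Reads were placed on mm10, per the submitters' processing notes, while aligner, quantifier, annotation, strand use and the meaning of the bounds were not given in the sources used here. Rows with status HIDATA or FAIL were treated as missing, and of 494 rows with a repeated symbol the one with the highest mean FPKM was used. Ratios were log2(FPKM + 1) differences, which understate changes of low genes, over genes with at least 1 FPKM in either library. From them the median log2 FPKM ratio of genes that reached 1 FPKM in every library was subtracted. That median carries no added 1, so rescaled ratios of low genes are drawn down and can fall below 0. Pdk4, named after its values were seen, was 2.53 times as high in Ercc1 DR as in wt AL. The median there was 1.72 times, yet its rescaled log2 ratio was -0.04. The genes, lists, markers and comparisons were chosen with earlier results of these data known, and the motifs with the promoter sequences at hand. Named list genes are 2 to 4 per list with the largest absolute rescaled ratio in Ercc1 DR against Ercc1 AL and at least 5 FPKM in either library. Starts are 1-based. Strand and overlaps come from GENCODE M21 on GRCm38, promoters from RefSeq. Alternatives varied scaling, pseudocount, minimum, value used and repeated symbols. Python 3.11.15, pandas 2.3.3 and NumPy 2.4.6 were used.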

Additional observations from a re-analysis of the deposited data

How the results depend on the processing

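With 1 library per group no library could be left out. The deposited bounds, whose meaning is not given, belong to 1 library each and hold no spread between libraries of a group. No paired analysis was possible because each group has 1 library. Without rescaling, 6 of the 10 genes were at least 2-fold higher in Ercc1 AL against wt AL in place of 1, and with a pseudocount of 5 the count was 0, with Agxt at 0.87. In Ercc1 DR against Ercc1 AL, scaling to genes that reached 10 FPKM in every library left 3 in place of 5, namely Got1, Sds and Agxt, with Tat at 0.97 and Gpt2 at 0.81. The other counts of the 10 genes under the 9 alternatives stayed within 1.5 times the main count, and 0 of them were lower in any. Counts of the other lists in Ercc1 DR against Ercc1 AL moved more. The serine, glycine and threonine list went from 2 to 0 with either other scaling or a pseudocount of 5, and the shuttle from 2 to 1 with the scaling to abundant genes. Without rescaling the transporters went from 2 to 4, the pericentral genes from 0 to 2, and the regulators and the glyoxylate and pyruvate list from 0 to 1 each, as the last pair also did with a pseudocount of 0.1. Hsd17b13 is borderline, so the periportal count of 3 was 2 in 4 settings. Of 267 single-gene ratios, 77 moved by more than the margin their deposited intervals give, and 0 of those past 2-fold changed sign. Got1 ranged from 2.95 to 3.49 and Sds from 2.26 to 2.88 under restriction. Among ratios within 2-fold, the sign changed under some setting for Tat and Sdsl in Ercc1 AL against wt AL, Agxt2 in Ercc1 DR against Ercc1 AL and Sdsl in Ercc1 DR against wt AL.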
